A study of Mus musculus with 5 samples.

Results

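Antigen receptor locus transcripts were read on 5 Affymetrix mouse arrays hybridised with RNA of sorted long-term haematopoietic stem cells (LT-HSCs). Probe sets were taken as members when a symbol in the platform annotation named a T cell receptor or immunoglobulin gene segment or constant region. The rule found 72 of 45037 probe sets. Of these, 3 belong to Tradd, a signalling adaptor of the tumour necrosis factor receptor whose symbol matches the letters of the rule only, and it is given apart. The remaining 69 comprised 17 probe sets of T cell receptor loci (9 alpha and delta, 3 beta, 5 gamma) and 52 of immunoglobulin loci (23 heavy chain, 25 kappa, 4 lambda). Several symbols were annotated to 14 of them, always of a single locus.

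The cells came from C57BL/6 mice aged 4 weeks, sorted as Lin-negative Sca-1+ Kit+ (LSK) cells that were IL7Ra-, Flt3-, CD150+ and CD48-. The 2 control samples came from Zbtb7a Flox/+ Mx1-Cre+ mice, that is, heterozygous for LRF. The 3 knockout samples came from Zbtb7a Flox/Flox Mx1-Cre+ mice, that is, homozygous for the loss of LRF. Zbtb7a encodes the transcription factor LRF. All 5 libraries thus carried Cre under the interferon-responsive Mx1 promoter and at least 1 floxed allele. All mice received 2 injections of 250 µg pIpC, a double-stranded RNA analogue that induces interferon and so Cre, and cells were taken 9 days after the first. The Mx1 promoter is not restricted to stem cells. The description of knockout replicate 3 named 2 animals, so it may be a pool. The comparison of knockout with control asked what loss of LRF does to the LT-HSC transcriptome.

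Antigen receptor genes are assembled during lymphocyte development by joining variable (V), diversity and joining (J) segments, a reaction started by the RAG1 and RAG2 recombinase. The joined exon is spliced to a constant region, so a mature receptor messenger RNA holds a V segment at its 5' side and a constant region at its 3' side. Loci are also transcribed before they are joined, giving germline transcripts, and those of the heavy chain constant region Ighm are known in early lymphoid progenitors. LT-HSCs carry no antigen receptor.

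The arrays covered few of these genes by name. RefSeq (GRCm38.p6) lists 665 genes whose symbols match the rule, and 36 of them were on the array, together with the older symbol Igk-V21. By locus this was 5 of 202 alpha and delta genes, 2 of 53 beta, 3 of 15 gamma, 5 of 215 heavy chain, 19 of 168 kappa and 2 of 12 lambda genes. Of 8 T cell receptor constant regions 0 were on the array by name, against 5 of 12 immunoglobulin constant regions. A probe set named for a V segment may have been designed on a joined transcript and read its constant region, and probe positions were not analysed here. Probe sets ending in _x_at or _s_at can in addition read similar transcripts.

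Values are log2 intensities. A level of 5.77, below which the mean over all arrays of 40% of probe sets fell, is taken as near background. Of the 69 members, 39 lay below it on every array, and 23 had a mean above it and were tested. The tested members comprised 2 alpha, 2 beta, 2 gamma, 9 heavy chain, 7 kappa and 1 lambda probe set. Because a member high in a single group or array passed more easily, counts are given first over all 69. In bulk RNA, more cells of a type and more RNA per cell cannot be told apart.

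Knockout replicate 2 stood apart. Over all probe sets it correlated with any other array at 0.970 or less, whereas each other array reached 0.983 to 0.990 with at least 1 array. The mean of 6 LT-HSC markers (Slamf1, which encodes CD150, Kit, Procr, Mecom, Hlf and Fgd5) was 7.98 in that array and 9.92 to 10.84 in the other 4. Slamf1 itself read 6.60 there and 8.06 to 9.16 elsewhere. All 6 markers were above the near-background level on all 5 arrays. The sort excluded the proteins of 3 listed genes, and 2 of these were highest in the same array. Il7r read 10.50 there, 9.35 in knockout replicate 1 and 6.21 to 7.44 elsewhere, and Cd48 read 9.97 against 7.87 to 8.59. Flt3, the third, was not, at 8.56 in knockout replicate 2 against 9.50 in control 2 and 8.25 to 8.92 in the others. Counts and medians of the members and of the gene lists are therefore given with and without that array.

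Every knockout array was higher than both controls for 7 of the 17 T cell receptor probe sets, against 3.61% of all probe sets. In the beta and gamma loci alone this held for 5 of 8 probe sets. These 5 were 1 beta probe set, named for Trbv1, and 4 gamma probe sets, named for Trgv1, Trgv4 and Trgv2. Their log2 differences were 1.04 to 2.83. Immunoglobulin transcripts of the heavy chain constant regions Ighm and Igha and of the kappa locus spanned up to 7.36 log2 units between arrays, against up to 3.98 for T cell receptor probe sets. The groups of the 5 with the widest spread overlapped, and all 5 were highest in knockout replicate 2. No member passed the limma test over all probe sets.

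Over all 69 members, 57 had a positive log2 difference and 12 a negative one, with a median of 0.17, against a median of 0 over all 45037 probe sets. Without knockout replicate 2, 32 were positive and 37 negative, with a median of -0.01. Every knockout array lay above both controls for 11 members, while the same held for 3.61% of all probe sets. Every knockout array lay below both controls for 0 members, against 3.52% of all probe sets. Of the 11, 5 were the beta and gamma probe sets, 5 differed by only 0.21 to 0.29, and the last was a dim Ighm probe set (difference 0.80). Among the 23 tested, 4 lay above and 0 below both controls on every knockout array, against 3.61% and 4.34% of all tested. Of these 4, Trgv1 and the probe set shared by Trgv4 and Trgv2 had control means below the filter (5.52 and 4.39). Both passed it only through the knockouts. Of these 23, 0 were called by limma at an adjusted p under 0.05, as were 0% of the 27022 probe sets tested. An unadjusted p under 0.05 was found for 2 of the 23, Trbv1 and the probe set shared by Trgv4 and Trgv2, against 1.13% of all tested. With no filter, limma gave such a p for 3 of the 69 members, against 629 of all 45037 probe sets. An exact permutation test of 2 against 3 arrays cannot give a p below 0.1.

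**Figure D1:**
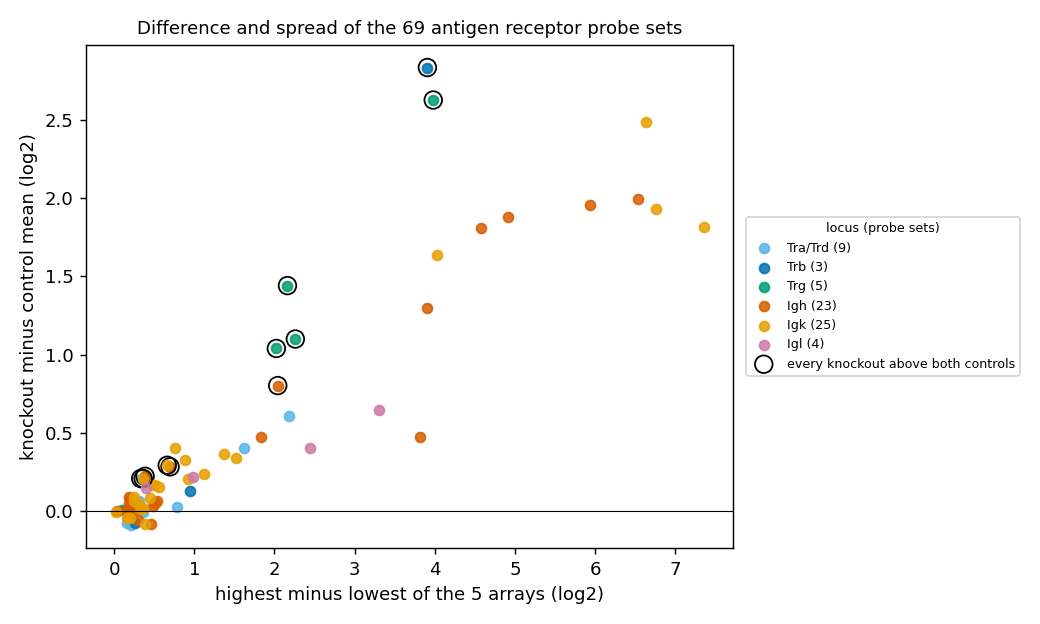
Each point is 1 of the 69 antigen receptor probe sets, coloured by locus. The horizontal axis gives the highest minus the lowest of the 5 arrays and the vertical axis the knockout minus control mean, both in log2 units. Circled points have every knockout array above both controls. The beta and gamma probe sets reach differences of 2.83 and 2.63 with a spread of 3.91 and 3.98, while the kappa and heavy chain probe sets on the right reach at most 2.48 with spreads of up to 7.36.

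The beta chain pairs with the alpha chain in most T cells, and its locus is joined before that of alpha. Trbv1 (1452205_x_at) read 6.19 and 6.10 in controls 1 and 2 and 10.01, 8.65 and 8.28 in knockout replicates 1, 2 and 3. The controls were within 0.09 of each other, and the lowest knockout lay above both. Controls averaged 6.15 ± 0.07 (SD, n = 2) and knockouts 8.98 ± 0.91 (SD, n = 3). Knockouts were thus higher by 2.83 (SE 0.56) on the log2 scale, or 7.13-fold. Its unadjusted p ranked 14 among the 27022 probe sets tested, with a limma adjusted p of 1. The difference was 3.00 without knockout replicate 2 and 2.32 to 3.18 as each array was left out. The second Trbv1 probe set (1433108_at) was near background at 4.39 to 4.65 on all arrays and differed by -0.07. Trbv13-2, another beta V segment, read 6.16 and 5.76 in controls and 6.54, 6.13 and 5.59 in knockouts, so its groups overlapped (difference 0.13, SE 0.33). The 2 Trbv1 probe sets thus did not agree, and the difference cannot be assigned to the Trbv1 segment from these data.

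The gamma chain belongs to the receptor of gamma-delta T cells, and its small locus in mice holds several clusters, each with its own constant region. In RefSeq order Trgv2 and Trgv1 are neighbours, but Trgv2 follows Trgc2 and Trgj2, and Trgv1 precedes Trgj4 and Trgc4. Trgv4 lies apart from both, on the side of Trgj1 and Trgc1. The probe set shared by Trgv4 and Trgv2 (1422188_s_at) read 4.10 and 4.67 in controls and 8.08, 5.66 and 7.29 in knockout replicates 1, 2 and 3. Both controls and knockout replicate 2 were near background, and knockout replicates 1 and 3 were well above it. The mean was 4.39 ± 0.40 (SD, n = 2) against 7.01 ± 1.23 (SD, n = 3), a difference of 2.63 (SE 0.77), and 3.30 without knockout replicate 2. Because the control values were near background, the size of this difference is uncertain. It passed the filter on low values only through the knockouts.

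Trgv1 (1427608_a_at) read 5.89 and 5.14 in controls and 7.16, 6.12 and 6.39 in knockouts. The groups did not overlap, but knockout replicate 2 exceeded control 1 by little (difference of the means 1.04, SE 0.41). The difference was 0.66 without control 2 and 1.26 without knockout replicate 2. Trgv4 (1450521_a_at) read 4.67 and 4.58 in controls and 6.74, 5.21 and 6.24 in knockouts, a difference of 1.44. A further Trgv4 probe set (1422189_x_at), which the rule for named genes did not take, read 4.46 and 5.00 against 6.72, 5.17 and 5.61, a difference of 1.10. Both Trgv4 probe sets had means below the filter and were not tested. In all 4 of these gamma probe sets knockout replicate 1 was highest, replicate 3 next and replicate 2 lowest of the knockouts. The fifth gamma probe set (1427802_a_at, Trgv4) was dark, at 3.42 to 3.52 on every array. The median difference of the 5 beta and gamma probe sets with separate groups was 1.44, and 1.10 to 1.87 as single arrays were left out; that it stays positive follows from how they were picked.

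**Figure D2:**
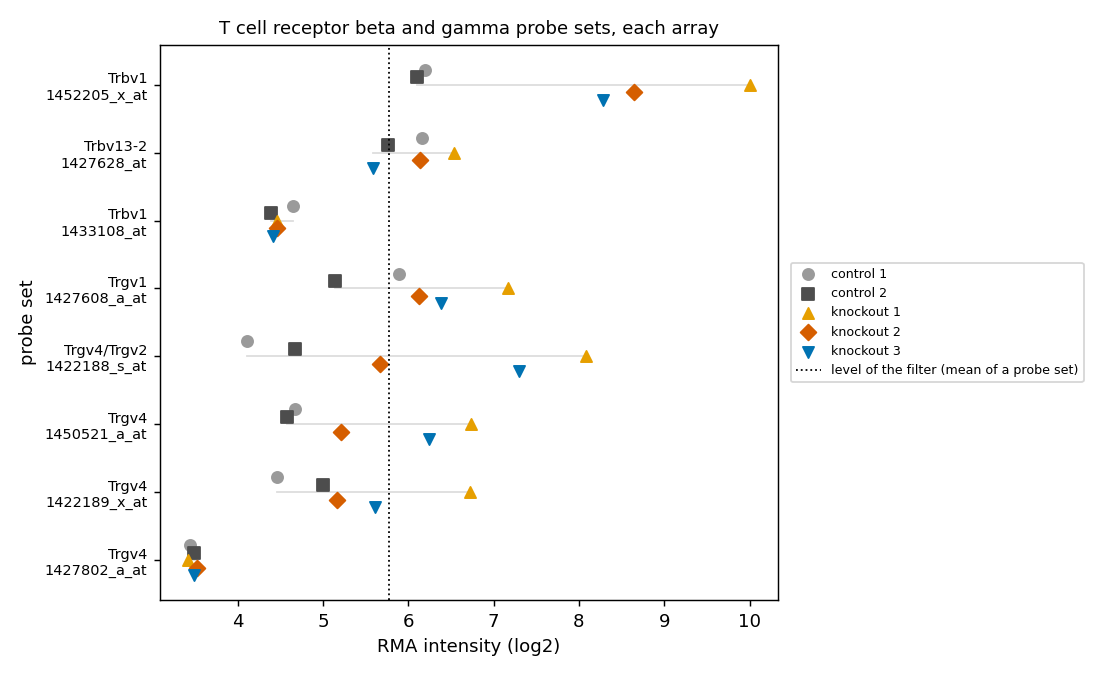
RMA intensity (log2, horizontal) of the 3 beta and 5 gamma probe sets (vertical), 1 symbol per array, with the dotted line at the near-background level of 5.77. Knockout replicate 1 is highest for Trbv1 at 10.01 and for the Trgv4 and Trgv2 probe set at 8.08, where the controls read 6.19 and 6.10, and 4.10 and 4.67.

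The alpha locus, which is joined last in developing T cells, gave little signal. Of its 9 probe sets, 6 were below the near-background level on every array, and the median difference was 0.07. Every knockout array lay above both controls for 2 of the 9, against 3.61% of all probe sets. These were Trav6-3 and a Trav9d-3 probe set (1426168_a_at), both near background, with differences of 0.21 and 0.28. The brightest, Trav9d-3 (1426113_x_at), read 6.44 and 6.06 in controls and 6.32, 7.64 and 6.01 in knockouts, so a single array stood out (difference 0.40, SE 0.54). A second Trav9d-3 probe set (1452405_x_at) had the same pattern, at 5.80 and 5.50 against 5.80, 7.57 and 5.39. Without knockout replicate 2 their differences were -0.09 and -0.05. The third in brightness (1427653_at) stayed between 5.13 and 5.92. Trav12n-1, Trav12n-2, Trav13-5 and Trav6-3 ranged over 0.16 to 0.33 between arrays. Knockout replicate 1, which was highest for the beta and gamma probe sets with separate groups, thus lay within the range of the controls at both bright Trav9d-3 probe sets.

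Other genes needed to build and signal through these receptors were counted on the same arrays. Of 14 V(D)J recombination genes listed, 12 were tested and 0 were called by limma, with 1 at an unadjusted p under 0.05, and 7 differences were positive. Rag1, the recombinase subunit, read 6.93 and 6.86 in controls and 9.40, 9.87 and 8.38 in knockouts, with all knockouts above the controls (difference 2.32, SE 0.47). Rag2, its partner, read 5.80 and 5.63 against 6.21, 7.21 and 5.75, and the groups overlapped. Dntt, which adds nucleotides at the joints, read 9.38 and 10.57 against 11.66, 11.05 and 10.33, so its groups overlapped too (difference 1.04, SE 0.55). Nhej1, an end-joining factor, differed by 0.31 (SE 0.20) with separate groups, at 6.82 and 6.85 against 6.88, 7.38 and 7.19. Rag1 and Nhej1 were the 2 of 12 tested with every knockout above both controls, against 3.61% of all probe sets tested. The recombination genes as a list had a median difference of 0.08, against -0.01 over all probe sets tested. With knockout replicate 2 left out, 9 of 12 were positive with a median of 0.17, and Rag1 and Dntt differed by 1.99 and 1.02.

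Of 11 receptor and pre-receptor subunits, 10 were on the array and 8 were tested. All 8 differences were positive with a median of 0.44, and 0 were called (0 at an unadjusted p under 0.05). Of the 8, 3 were positive (Cd3e, Cd247 and Igll1) and 5 negative without knockout replicate 2, with a median of -0.07. Cd3e, a signalling chain of the T cell receptor, read 7.33 and 7.08 in controls and 7.33, 7.86 and 7.28 in knockouts. Cd247, another signalling chain, differed by 0.22 (SE 0.26). Cd3g was below the near-background level on all arrays, at 4.52 and 4.25 against 5.48, 5.50 and 4.69. Ptcra, the pre-T alpha chain, read 5.75 and 5.34 against 6.38, 5.75 and 5.57. Igll1, part of the surrogate light chain, read 8.02 and 8.40 against 8.24, 9.79 and 8.24, and Vpreb1, its partner, 7.87 and 9.51 against 8.28, 10.62 and 8.91. Vpreb3, an early B cell protein, differed by 0.52 (SE 0.60). Igll1, Vpreb1 and Vpreb3 were thus highest in knockout replicate 2, and the other knockouts stayed within or next to the control values.

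Among 17 transcription factors of these loci, 0 were called, 1 had an unadjusted p under 0.05, 13 differences were positive and the median was 0.19. Without knockout replicate 2, 9 were positive with a median of 0.03. Bcl11b, a regulator of T lineage commitment, read 6.54 and 6.03 in controls and 9.87, 7.77 and 7.80 in knockouts (difference 2.20, SE 0.74, and 2.55 without knockout replicate 2). Its groups did not overlap, and as for the beta and gamma probe sets knockout replicate 1 was highest. Irf8, a factor of B and myeloid cells, read 9.45 and 8.95 against 9.47, 12.13 and 9.29. Pou2f2, an octamer factor of B cells, differed by 0.19 (SE 0.16), and Irf4, which acts in light chain transcription and in plasma cells, stood out in knockout replicate 2 with 9.11 against 5.57 to 5.83 on the other arrays.

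Among markers of mature T cells, none was called, and most of those on the array were highest in knockout replicate 2. That array was the lowest of the knockouts for the gamma probe sets with separate groups. The mean of 14 T cell markers was 6.27 and 6.31 in controls and 6.65, 6.93 and 6.26 in knockout replicates 1, 2 and 3. The summed level of the list was 10.60 to 10.70 in controls and 10.59 to 11.09 in knockouts on the log2 scale. Of 9 markers tested, 8 differed in the positive direction and 0 were called (0 at an unadjusted p under 0.05). Separate groups were found for 1, Cd6 (difference 0.48, SE 0.19), against 3.61% of all probe sets tested. In the absence of knockout replicate 2, 5 of 9 were positive with a median of 0.10. Knockout replicate 2 was highest for 8 of the 14. The adhesion receptor gene Cd2 read 7.78 there against 4.51 to 4.75 elsewhere, Cd3d 7.37 against 5.58 to 6.08 and Cd5 6.03 against at most 5.05. In knockout replicate 1, Cd3g and Trat1 read 5.48 and 6.42, against 4.25 to 4.52 and 5.22 to 5.65 in controls. In knockout replicate 2 they read 5.50 and 5.62. Cd2, Cd3d, Cd5, Cd3g and Trat1 were picked out after their values were seen. Cd3g and Cd8b1 were below the near-background level on every array. Cd4, Cd8a, Thy1 and Trat1 differed by -0.30, 0.07, 0.81 and 0.50, with overlapping groups. The brightest T cell markers were Zap70, a kinase, and Lat, an adaptor, with differences of 0.04 and 0.06, followed by Thy1. In knockout replicate 3, Trbv1 was 2.14 and the Trgv4 and Trgv2 probe set 2.90 above the control mean. The T cell list mean of 6.26 in that array was close to the 6.27 and 6.31 of the controls. Cd3g, Cd6, Thy1 and Trat1 lay above both controls there, and Cd3d, Zap70, Cd2, Cd5, Cd4, Cd8a and Cd8b1 lay below both. Natural killer and innate lymphoid markers had 7 of 7 tested differences positive (median 0.35, 0 called, 0 at an unadjusted p under 0.05), or 5 of 7 without knockout replicate 2 (median 0.14), with list means of 6.39 and 6.36 in controls and 6.86, 7.70 and 6.42 in knockouts. Gzma, a granule protease, read 6.47 and 6.78 against 9.09, 9.18 and 6.96, and the receptor gene Klrd1 4.57 and 5.00 against 6.22, 9.55 and 5.14. Both had separate groups, 2 of the 7 tested, against 3.61% of all probe sets tested. Klrd1 was above the near-background level only in knockout replicates 1 and 2, and replicate 3 exceeded control 2 by little. Gzma and Klrd1 differed by 1.79 (SE 0.76) and 2.19 (SE 1.38), or 1.40 and 0.89 without knockout replicate 2. Il2rb, a cytokine receptor chain, differed by 0.35 (SE 0.32) and Nkg7, a granule protein, by 0.52 (SE 0.38). The brightest of the list were Id2, Nkg7 and Gzma, and the part of T, natural killer or innate lymphoid cells in the beta and gamma differences was not tested.

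Ighm, the heavy chain constant region of IgM, had 11 probe sets annotated to it alone. Its brightest (1427351_s_at) read 10.30 and 9.62 in controls and 12.63, 13.90 and 8.99 in knockout replicates 1, 2 and 3. Knockout replicates 1 and 2 were above both controls and replicate 3 was below both. The difference was 1.88 (SE 1.54), or 0.85 without knockout replicate 2 and 3.30 without replicate 3. The next (1427329_a_at) had the same order of arrays, at 8.96 and 8.55 against 11.13, 12.57 and 7.996, a difference of 1.81 (SE 1.41).

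The other 9 Ighm probe sets spanned at most 2.04 between arrays. Another bright one (1427870_x_at) was flat at 8.49 to 8.78 (difference -0.06), and 1425247_a_at stayed within 5.73 to 6.26. Ighm 1452535_at was the sole tested immunoglobulin probe set with separate groups, and its lowest knockout exceeded the higher control by less than 0.01 (6.192 against 6.188), so its difference of 0.22 (SE 0.17) has little behind it. The groups of the untested 1425385_a_at were separate too, at 5.27 and 5.26 against 5.51, 7.30 and 5.39. Readings of Ighm therefore depended on the probe set, and the wide spread of Ighm rests on 2 of 11.

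Igha, the constant region of IgA, is transcribed in a functional form after class switching in activated B cells and plasma cells. It was high in a single array. Its 3 probe sets read 12.43 (1421653_a_at), 12.76 (1425763_x_at) and 10.88 (1429381_x_at) in knockout replicate 2, which was 5.63, 6.27 and 3.57 above the next array. In the other arrays they stayed at 6.50 to 6.80, 6.23 to 6.49 and 6.98 to 7.30. The knockout minus control differences of 1.96, 2.00 and 1.30 (SE 1.99, 2.23 and 1.30) became 0.03, -0.16 and 0.05 without that array. Knockout replicate 1, high for the 2 Ighm probe sets, was thus not high for Igha. Of 4 probe sets annotated to Ighg3 alone, the IgG3 constant region, 1427503_at read 7.63 in knockout replicate 2 and 5.80 to 6.19 elsewhere, and the others were near background. Ighv14-2 (1455530_at), a heavy chain V segment, had a mean just below the filter and was not tested. It read 6.40 and 4.23 in controls and 5.08, 8.05 and 4.23 in knockouts, so knockout replicate 2 and control 1 were highest. This gene was chosen after its values were seen.

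The kappa light chain is the more used light chain of mice. Its constant region Igkc was read by 3 probe sets that are shared with Igkj1, Igkv6-23, Igkv4-53 and Igkv8-30, so none can be assigned to 1 gene. The first (1427660_x_at) read 9.94 and 7.06 in controls 1 and 2 and 11.70, 13.17 and 6.41 in knockout replicates 1, 2 and 3. The second (1452417_x_at) read 9.92 and 6.67 against 11.73, 12.98 and 5.62. The third (1427455_x_at) read 8.65 and 6.21 against 10.59, 12.85 and 6.29. All 3 had the same 3 arrays on top, knockout replicate 2, then knockout replicate 1, then control 1, and the groups overlapped widely.

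The 2 controls differed from each other by 2.89, 3.25 and 2.44 at these probe sets, more than the knockout minus control differences of 1.93, 1.82 and 2.48 for 2 of the 3. The standard errors were 2.29, 2.54 and 2.12. The differences ranged from 0.19 to 4.29 over these probe sets as single arrays were left out. Without control 2 they were 0.49, 0.19 and 1.26. Igkv8-30 (1452463_x_at), annotated to that V segment alone, repeated the order at 6.50 and 5.52 in controls and 7.78, 9.55 and 5.60 in knockouts. Over all 52 immunoglobulin probe sets, 10 had this order (knockout replicate 2, knockout replicate 1, control 1, then the other 2 arrays), an order described after it was seen.

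Most other kappa V segments were dim. Of 25 kappa probe sets, 17 were below the near-background level on every array, and 18 ranged over less than 1 log2 unit. Igkv19-93 (1427855_at) read 7.82 in knockout replicate 2 and 6.30 to 6.75 elsewhere, and Igkv6-15 read 6.90 there and 5.53 to 5.93 elsewhere. The lambda locus, which a small share of mouse B cells uses, had 4 probe sets. Iglv1 (1447918_x_at) read 5.77 and 5.66 in controls and 5.44, 7.68 and 5.24 in knockouts. The probe set shared by Iglc1, a lambda constant region, and Iglv1 (1424931_s_at) read 4.96 and 4.47 against 4.66, 7.37 and 4.06. Another Iglv1 probe set (1430523_s_at) read 5.69 in knockout replicate 2 and 4.71 to 5.14 elsewhere. Lambda, like Igha, was thus highest in knockout replicate 2.

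**Figure D3:**
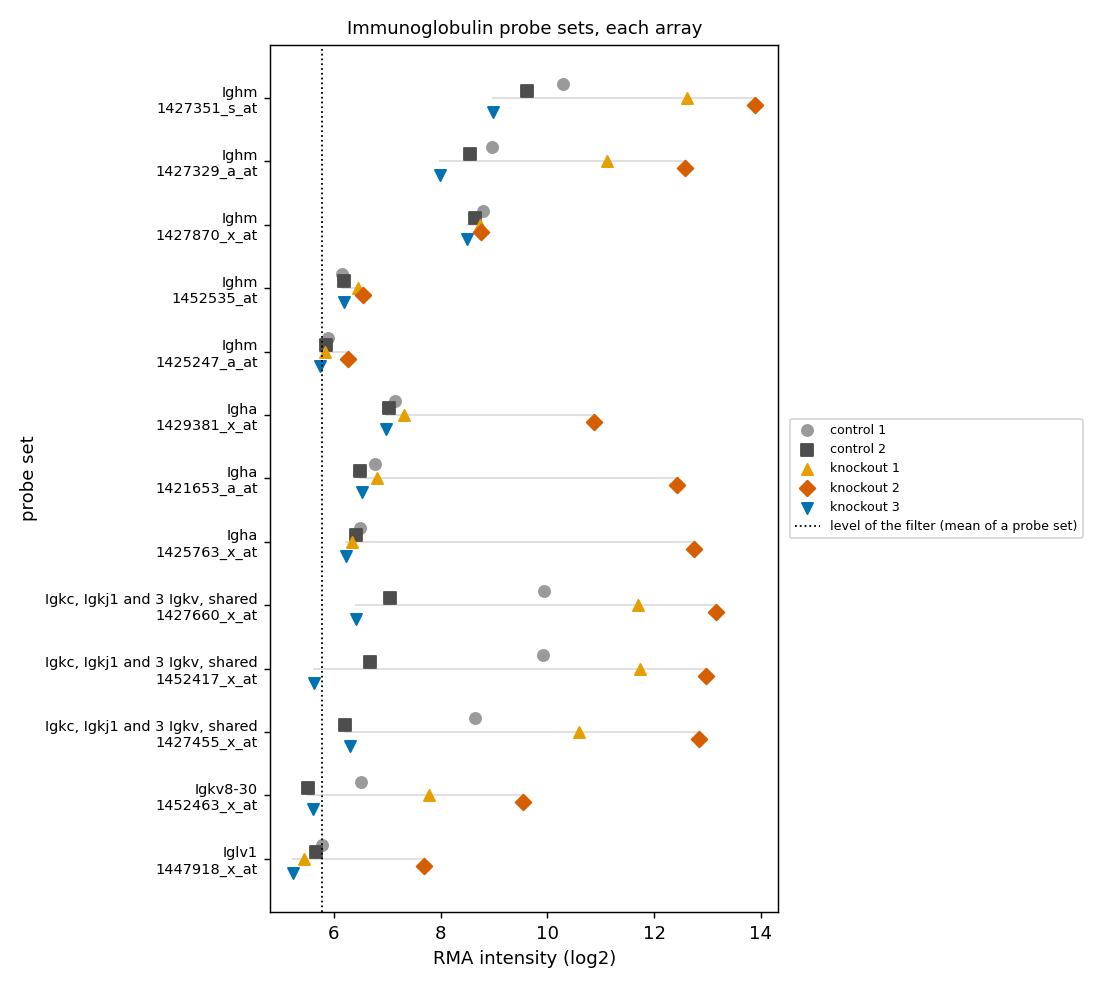
RMA intensity (log2, horizontal) of 13 immunoglobulin probe sets above the filter (vertical), 1 symbol per array, with the dotted line at the near-background level of 5.77. Knockout replicate 2 reaches 13.90 for Ighm, 12.76 for Igha and 13.17 for the shared kappa probe sets. Knockout replicate 1 is high for the 2 brightest Ighm probe sets and for kappa but not for Igha. Knockout replicate 3 lies close to or below the lower control.

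Knockout replicate 2 had the highest value for 37 of 52 immunoglobulin probe sets, and by at least 1 log2 unit for 15 of them. Of the 52, 31 were below the near-background level on every array. How often this array was highest over all probe sets was not counted. Among the 17 T cell receptor probe sets knockout replicate 2 was highest for 6, and knockout replicate 1 for 8. Knockout replicate 3 was highest for 0 of all 69. Immunoglobulin differences were positive for 44 of 52 probe sets with a median of 0.17. Without knockout replicate 2 they were positive for 24 and negative for 28, with a median of -0.01. Over the 17 tested immunoglobulin probe sets the median was 1.30. Without knockout replicate 2 it was 0.05 over those that passed the filter applied again to the remaining arrays. T cell receptor differences were positive for 13 of 17 (median 0.21), and for 8 of 17 without knockout replicate 2 (median -0.01).

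The list means of B cell, plasma cell and early B lineage markers were highest in knockout replicate 2, as were most immunoglobulin probe sets. That array was highest for 11 of 11 B cell, 6 of 9 plasma cell and 7 of 8 early B lineage markers. The mean of 11 B cell markers was 7.10 and 6.78 in controls and 6.52, 8.83 and 6.49 in knockout replicates 1, 2 and 3. Their summed level on the log2 scale was 10.74 to 10.95 in controls and 10.38 to 13.08 in knockouts. All 11 were above the near-background level in knockout replicate 2, against 10 and 8 in controls 1 and 2 and 7 in each of the other knockouts. Ms4a1, which encodes CD20, read 8.24 and 6.84 in controls and 6.52, 11.49 and 6.12 in knockouts, and Cd79b, a signalling chain of the B cell receptor, 8.77 and 8.79 against 8.35, 10.40 and 8.72. Knockout replicate 1 was below both controls for both genes, and also for Cd79a, Ebf1 and Blnk. Its readings of Cd22, Blk, Cd72 and Fcer2a lay between the controls, and those of Pax5 and Cr2 equalled control 1. Ms4a1 was not taken by the rule for named genes. Blnk, a B cell adaptor and a bright member, read 8.25 and 8.29 against 7.33, 10.09 and 8.03. Of 10 B cell markers tested, 10 differences were positive (median 0.39) and 0 were called (0 at an unadjusted p under 0.05). Leaving out knockout replicate 2 made 9 of the 10 negative, with a median of -0.37, and Blk alone stayed positive. Over all arrays Blk, Cd72, Cd79a and Cd22 had differences of 0.64, 0.52, 0.51 and 0.41.

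The plasma cell marker Jchain, the joining chain of secreted IgM and IgA, was highest in knockout replicates 2 and 1, as were 2 Ighm probe sets. It read 5.15 and 4.79 in controls and 8.87, 10.32 and 5.05 in knockouts (difference 3.11, SE 1.63, or 1.99 without knockout replicate 2), with knockout replicates 1 and 2 high and replicate 3 at the control level. The list of 9 plasma cell markers was led in brightness by Xbp1, Mzb1 and Fkbp11. It had means of 6.74 and 6.90 in controls and 7.29, 8.08 and 6.73 in knockouts, and summed levels of 12.20 to 12.28 and 11.77 to 13.06. Mzb1, a chaperone of secretory B cells, read 6.91 and 7.17 against 7.17, 9.04 and 6.96. Tnfrsf17 was below the near-background level on all arrays, and Prdm1 read 5.60 to 5.86. Xbp1 (11.999 and 12.05 against 11.81, 12.48 and 11.48), Derl3 and Sdc1 were above the near-background level on all arrays. Sdc1 was highest in control 2 (7.54, against 6.59 in knockout replicate 2) and Fkbp11 in knockout replicate 1 (7.41, against 6.77). Of 7 tested, 5 differences were positive (median 0.22) and 0 were called (0 at an unadjusted p under 0.05). Of these, 4 were positive without knockout replicate 2, with a median of 0.03. Irf4 and Fkbp11 differed by 1.02 (SE 1.19) and 0.22 (SE 0.25).

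The 8 early B lineage markers had means of 7.08 and 7.63 in controls and 8.05, 9.55 and 7.55 in knockouts, with 8 of 8 differences positive (median 0.63), 0 called and 1, Rag1, at an unadjusted p under 0.05. Without knockout replicate 2, 5 were positive with a median of 0.15. Dntt was the member highest in knockout replicate 1. Their summed level was 10.61 to 11.59 in controls and 11.42 to 12.97 in knockouts. Il7r, the interleukin 7 receptor, read 6.21 and 7.30 against 9.35, 10.50 and 7.44. Ebf1, the B lineage determinant, read 6.11 and 6.43 in controls, 9.38 in knockout replicate 2 and 4.97 and 4.99 in replicates 1 and 3. The part of B lineage cells in the immunoglobulin readings was not tested.

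**Figure D4:**
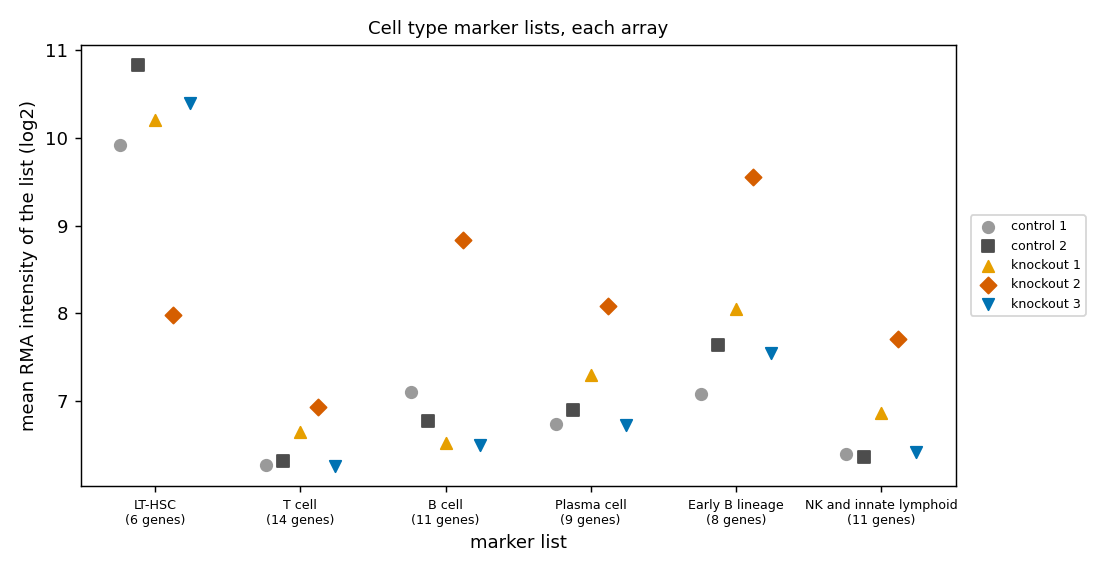
Mean RMA intensity (log2, vertical) of 6 marker lists (horizontal, with the number of genes on the array), 1 symbol per array. Knockout replicate 2 is lowest for LT-HSC markers at 7.98 and highest for the other lists, with B cell markers at 8.83 against 6.49 to 7.10 elsewhere, and T cell markers span 6.26 to 6.93.

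The brightest probe set of Tradd, the adaptor caught by the letters of the rule, read 8.67 and 8.96 in controls against 8.60, 8.47 and 8.90 with both alleles floxed (difference -0.15, SE 0.20). Its other probe sets differed by -0.17 and 0.04, and none separated the groups.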

How the data were processed

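RNA of LT-HSCs of 2 control and 3 knockout libraries was amplified by repeated in vitro transcription and hybridised to Affymetrix mouse arrays, per the labels' protocols. The authors deposited an RMA log2 intensity for each probe set on each array. The submitters' processing notes name Affymetrix Expression Console, without a version. RMA forces the arrays to one distribution and compresses dim values, and the number of arrays limits the precision.

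The 64 control probe sets and the 40% of probe sets with the lowest mean over all arrays were left out, which left 27022. Differences (knockout minus control) were fitted with limma 3.58.1 in R 4.3.3 (lmFit, eBayes, no covariate, two-sided, Benjamini-Hochberg over all probe sets tested, adjusted p under 0.05). The fit was tested on simulated data. Separate replicate samples are taken as the labels give them, and p-values measure the spread between these samples. Names came from the platform annotation. Companion genes were read by their brightest probe set annotated to that gene alone. Named members were those tested with separate groups, tested constant regions, the 3 brightest of each locus and the 5 with the widest spread; companion lists added up to 4 genes of smallest p and, for other cell types, the 3 brightest. Members and lists were chosen with earlier results of these data known. Alternatives were other filters, prior, weights and scalings, single-symbol probe sets, the replicate number as a block and the loss of each array. Figures were drawn with matplotlib 3.10.9. No sequences of the members were used here.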

Additional observations from a re-analysis of the deposited data

How the results depend on the processing

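No antigen receptor probe set and no probe set overall was called by limma under any alternative run (lowest adjusted p of a member 0.856); at an unadjusted p under 0.05 the fit held 306 probe sets, 2 of them members. The number of members with every knockout above both controls was 4 of those tested, 11 with no filter, 1 with the lowest 60% left out and 4 to 12 as single arrays were left out (9 without control replicate 1, 12 without knockout replicate 3). The number below both controls was 0, and 0 to 2 as arrays were left out (1 without control replicate 2, 2 without knockout replicate 2). The median of tested T cell receptor probe sets was 0.82, 0.21 with no filter, 2.83 with the lowest 60% left out (1 probe set), and 0.56 to 1.26 without single arrays. That of immunoglobulin probe sets was 1.30, 0.17 with no filter, 0.25 with array weights, 0.48 over probe sets with 1 symbol only, and 0.05 to 1.25 without single arrays. With the replicate number as a block, which only replicates 1 and 2 share between groups, these medians were 1.08 and 2.00 and 0 probe sets were called. The correlation of control 1 minus control 2 with knockout 1 minus knockout 2 over all probe sets was -0.54, and the numbers are taken as names only. Signs turned for Ighm 1427870_x_at (0.029 with the replicate block, -0.12 to 0.029 without single arrays), Ighm 1425247_a_at (-0.042 with array weights, -0.092 to 0.17), Iglv1 1447918_x_at (-0.25 with array weights, -0.38 without knockout replicate 2), Igha 1425763_x_at (-0.16 to 3.10), Ighg3 1427503_at (-0.084 to 0.83), Trav9d-3 1426113_x_at (-0.087 to 0.72) and 1452405_x_at (-0.05 to 1.04) and Trbv13-2 (-0.0985 to 0.38); the cause was not tested beyond the array left out. The gene lists without knockout replicate 2 were added after seeing the data. Control values of the gamma probe sets near background limit the size of their differences.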
